A study of Homo sapiens with 4 samples.

Results

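PLAU, PLAUR, PLAT, SERPINE2, SERPINB2, F3, TFPI, TFPI2 and THBD encode the proteins that start plasminogen activation and blood clotting at the cell surface, together with a receptor, a cofactor and inhibitors that act on them. These 9 genes were matched by symbol in the deposited FPKM table and by Ensembl identifier in the table of reads, among 58735 genes in all. RNA had been sequenced from MHCC-97H, a highly metastatic human hepatocellular carcinoma (HCC) cell line, after 24 h with PBS or with 2 µg of migrasomes (Migs), vesicles that migrating cells leave behind on their retraction fibers. The study asked how Migs from hypoxic HCC cells, and the CD147 they carry, alter the cells that take them up.

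The 4 groups held 1 library each, all of wild-type MHCC-97H cells. PBS was the control without Migs, normo-Migs came from MHCC-97H cells kept in normoxia, hypo-Migs from MHCC-97H cells kept in hypoxia, and CD147KO-Migs from CD147 knockout MHCC-97H cells kept in hypoxia. Hypo-Migs and CD147KO-Migs therefore differed in the genotype of the donor cells, hypo-Migs and normo-Migs in their oxygen, and normo-Migs and CD147KO-Migs in both. The labels and the supplementary methods give normoxia for normo-Migs and were followed here, whereas the study's main methods give hypoxia. Donor and recipient were the same cell line, so the limits of the model are those of 1 line in culture, without plasma, platelets or endothelium. The number of reads on genes was 33882496 with PBS and 34559968, 40285223 and 35043203 with normo-Migs, hypo-Migs and CD147KO-Migs. With 1 library per condition no difference has a replicate check. No p-value is given, and every interval below is a 95% interval that covers counting error only.

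Urokinase (uPA, from PLAU) and tissue-type plasminogen activator (tPA, from PLAT) cleave plasminogen to plasmin, which dissolves fibrin and pericellular matrix. Urokinase acts mainly at the cell surface, bound to its receptor uPAR (from PLAUR), and both activators are blocked by serpins. Clotting starts when tissue factor (from F3) binds factor VIIa, a complex that TFPI shuts off, while thrombomodulin (from THBD) turns thrombin towards protein C activation. Tumor cells of many kinds make tissue factor and uPAR, and healthy liver makes most of the plasma substrates of both cascades.

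In GRCh38 (hg38), the build of the files, PLAU (ENSG00000122861) lies on the plus strand of chromosome 10 from 73909177 to 73917497, and its longest coding transcript has 11 exons. PLAT (ENSG00000104368) lies on chromosome 8 from 42175233 to 42207724, PLAUR (ENSG00000011422) on chromosome 19 from 43646095 to 43670547, and F3 (ENSG00000117525) on chromosome 1 from 94529225 to 94541800, all on the minus strand. SERPINE2 (ENSG00000135919, 223975112 to 224039319) and TFPI (ENSG00000003436, 187464230 to 187565760) share the minus strand of chromosome 2. TFPI2 (ENSG00000105825) covers 93885396 to 93890991 of chromosome 7 and THBD (ENSG00000178726) 23045633 to 23049741 of chromosome 20, where it has a single exon, both on the minus strand. SERPINB2 (ENSG00000197632) lies on the plus strand of chromosome 18, from 63871692 to 63903890. Reads of overlapping genes may have been shared or left uncounted, since the handling of strands is not given in the sources used here. The largest overlap was that of PLAU with C10orf55 on the opposite strand, 916 exon bases or 31.1% of those of PLAU. C10orf55 held at most 5 reads, in the library with CD147KO-Migs, which does not show how reads in the overlap were counted for PLAU. SERPINB2 shares 547 exon bases with SERPINB10, which had 0 reads in all 4 libraries.

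RefSeq promoter sequences (GRCh38.p14) were found for 7 of the 9 genes and are shown for PLAU and F3, a gene that differed widely between the library with PBS and the Mig libraries and one that did not. The PLAU stretch is chr10:73910882-73911103 on the plus strand, upstream of a start at 73911132, and the F3 stretch is chr1:94541801-94542009 on the minus strand, upstream of a start at 94541759. Capitals mark the GC box (GGGCGG) and the AP-1 motif (TGANTCA), searched on both strands of the 250 bases before the start.

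PLAU: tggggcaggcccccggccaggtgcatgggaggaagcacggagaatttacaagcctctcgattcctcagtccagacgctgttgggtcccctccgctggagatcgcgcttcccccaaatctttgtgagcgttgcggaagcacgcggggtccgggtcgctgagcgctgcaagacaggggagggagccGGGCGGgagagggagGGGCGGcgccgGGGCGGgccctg

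F3: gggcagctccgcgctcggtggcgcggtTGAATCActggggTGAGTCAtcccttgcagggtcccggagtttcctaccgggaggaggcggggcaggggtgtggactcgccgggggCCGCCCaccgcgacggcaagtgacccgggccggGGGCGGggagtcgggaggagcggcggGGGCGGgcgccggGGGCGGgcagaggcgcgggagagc

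This PLAU window held 3 GC boxes, at 66, 51 and 40 bases before the start, and 24 CpG dinucleotides. The window of a second PLAU start, at 73910610, held neither motif and had 4 CpG dinucleotides. The F3 window held 4 GC boxes and 2 AP-1 motifs and had 34 CpG dinucleotides. The TFPI2 window, not printed, held 1 AP-1 motif, 2 GC boxes and 20 CpG dinucleotides. Of 35116 promoters of the same length, 42.6% held a GC box and 6.57% an AP-1 motif, and the median was 11 CpG dinucleotides. These matches describe the letters of the windows, and binding was not measured here.

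The library labelled PBS stood apart from the Mig libraries far beyond the 9 genes. In that library 251 genes had at most 3 reads and at least 100 in each of the other libraries, whereas the same count was 0 for each Mig library. Mitochondrial genes took 2.69% of its reads and 5.00%, 5.16% and 5.06% with normo-Migs, hypo-Migs and CD147KO-Migs. Mitochondrial rRNA took 0.150% of its reads and 1.34%, 1.47% and 1.47% in the same order. All 3 comparisons with PBS rest on this library, so none can be given without it, and treatment and library cannot be told apart in them. The comparisons among the Mig libraries do not use its reads, beyond the choice of genes tested and the scaling.

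The labelled cell type was checked against 12 hepatocyte or HCC markers. The list summed to 4205, 5484, 6150 and 6596 CPM (here reads scaled to the total on genes, without TMM) with PBS, normo-Migs, hypo-Migs and CD147KO-Migs, nearly all of it from KRT8 and KRT18, keratins of liver epithelium, with 105571 KRT8 reads with PBS. HNF4A, a hepatocyte transcription factor, had 134 reads with PBS and 146, 246 and 141 with normo-Migs, hypo-Migs and CD147KO-Migs. ALB, AFP, APOB, TTR and GPC3 had 0 reads in all 4 libraries, and the secreted inhibitor SERPINA1 had 25, 2, 9 and 10. FGB, a chain of the fibrin precursor fibrinogen, had 0 reads with PBS and 561, 827 and 832 in the Mig libraries.

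Markers of other cell types were also measured on that scale, and some were higher and others lower in the Mig libraries. The 9 endothelial markers summed to 3.48, 4.69, 5.56 and 5.65 CPM with PBS, normo-Migs, hypo-Migs and CD147KO-Migs, led by FPKM by CDH5 with PBS and PECAM1 in the Mig libraries, and CLEC14A had 0 reads throughout. Against PBS, 2 of the 4 endothelial markers tested were more than 2-fold higher and 2 lower for normo-Migs. The counts were 2 and 1 for hypo-Migs, and 1 and 1 for CD147KO-Migs. Among all genes tested, 18.1%, 18.9% and 18.3% were higher and 12%, 11.6% and 12% lower, in the same order. PECAM1 had 16 reads with PBS and 118, 146 and 131 in the Mig libraries, whereas CDH5 had 84 and then 30, 72 and 59, and TEK had 11 and then 0, 3 and 0. ROBO4 had 0 and then 14, 3 and 1, so its call as higher with hypo-Migs rests on 3 reads, no more than a count of 0 allows. The 9 leukocyte and platelet markers summed to 2.27, 7.93, 6.88 and 8.99 CPM, led by FPKM by GP1BA with PBS, ITGA2B with normo-Migs and CD14 in the others, and CD3E, PPBP and PF4 had 0 reads in all 4 libraries. Of the 3 leukocyte and platelet markers tested, 2 were more than 2-fold higher than with PBS in each comparison. The share of all genes tested that was higher was 18.1%, 18.9% and 18.3%. The 2 markers were ITGA2B (0 reads with PBS and 156, 114 and 151 in the Mig libraries) and CD14 (14 and then 47, 78 and 86). The 9 fibroblast or stellate cell markers summed to 26.1 CPM with PBS and 208, 221 and 223 CPM with normo-Migs, hypo-Migs and CD147KO-Migs. In each comparison with PBS, 5 of the 7 tested were more than 2-fold higher and 0 lower. Beside this, 18.1%, 18.9% and 18.3% of all genes tested were higher and 12%, 11.6% and 12% lower. COL1A1 was the most abundant by FPKM, with 681 reads with PBS and 3551, 4017 and 3472 in the Mig libraries. THY1 had 11 reads with PBS and then 1681, 2082 and 1859, and PDGFRB had 70 and then 1747, 2446 and 2166. LUM had 0 and then 49, 65 and 72, and DCN had 22 and then 77, 156 and 138. COL3A1 and ACTA2 did not pass 2-fold. COL1A2 had 2 reads with PBS and 0 in each Mig library, and PDGFRA had 1 read in all, with CD147KO-Migs. The part of these markers in the values below was not tested, and in RNA from a whole culture fewer cells of a type and less RNA per cell cannot be told apart.

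Expression was compared as reads scaled by TMM. A gene was tested when 1 or more libraries held 10 or more of its reads, which left 19895 genes and 8 of the 9 described here, all but SERPINB2. The fold criterion of the study, 1 unit or more of log2 fold change in either direction (2-fold), was used as the call.

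Both plasminogen activators were nearly absent with PBS and present in every Mig library. PLAU had 2 reads with PBS and 379, 526 and 517 with normo-Migs, hypo-Migs and CD147KO-Migs, or 0.0196, 3.74, 4.40 and 4.96 FPKM. PLAT had 12, 447, 554 and 469 reads, or 0.0524, 1.97, 2.07 and 2.00 FPKM. For both genes the library with PBS lay far below the others, which lay close to each other.

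The PLAU level was 192-fold higher with normo-Migs than with PBS (52.8 to 1591), 226-fold with hypo-Migs (62.3 to 1872) and 255-fold with CD147KO-Migs (70.2 to 2109). These intervals are wide because they rest on 2 reads, fewer than the 3 that a count of 0 allows, and the log2 fold changes fitted with a prior count of 2 reads were 6.62, 6.86 and 7.03. The PLAT level was 37.7-fold higher with normo-Migs (21.4 to 73.6), 39.7-fold with hypo-Migs (22.5 to 77.3) and 38.5-fold with CD147KO-Migs (21.8 to 75.1). Among the 19895 genes the log2 fold change of PLAU with hypo-Migs against PBS was in place 167 from the highest, and that of PLAT in place 439.

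Per length, urokinase mRNA exceeded tPA mRNA in each Mig library. The lengths pool the exons of all transcripts of a gene, 2950 bases for PLAU and 6618 for PLAT. By reads alone PLAT exceeded PLAU with normo-Migs (447 beside 379) and hypo-Migs (554 beside 526). With CD147KO-Migs PLAU exceeded PLAT (517 beside 469). The order per length therefore depends on which transcripts are made, which was not tested. The PLAU to PLAT ratio of reads per length was 1.90 (1.65 to 2.19) with normo-Migs, 2.13 (1.89 to 2.40) with hypo-Migs and 2.47 (2.18 to 2.81) with CD147KO-Migs. With PBS it was 0.374, and its interval, from 0.0406 to 1.68, does not fix an order. Plasminogen itself, PLG, had 1 read in all, with hypo-Migs, so its mRNA was not detectable beyond that read at this depth.

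The receptor PLAUR was expressed at a high level in all 4 libraries and differed little. It had 2043 reads with PBS and 2863, 3386 and 2899 with normo-Migs, hypo-Migs and CD147KO-Migs, or 13.3, 18.7, 18.8 and 18.4 FPKM. Its level in the Mig libraries was 1.42-fold, 1.43-fold and 1.40-fold that with PBS, in the same order, and the lowest and highest bounds of the 3 intervals were 1.32 and 1.51, short of the 2-fold call but outside counting error. The 3 Mig libraries did not differ beyond counting error, with intervals of their log2 ratios between -0.07 and 0.10. PLAUR mRNA per length was 676-fold that of PLAU with PBS (187 to 5587) and 5.00-fold, 4.26-fold and 3.71-fold with normo-Migs, hypo-Migs and CD147KO-Migs.

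SERPINE2, or protease nexin 1, inhibits thrombin, urokinase and tPA, and it was the gene that separated the Mig libraries most. It had 4579 reads with PBS and 5016, 4354 and 2354 with normo-Migs, hypo-Migs and CD147KO-Migs, or 14.9, 16.4, 12.1 and 7.49 FPKM. The level with CD147KO-Migs was the lowest, and the order from high to low was normo-Migs, PBS, hypo-Migs and CD147KO-Migs, with no neighbours within counting error.

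SERPINE2 was 2.19-fold higher with normo-Migs than with CD147KO-Migs (2.08 to 2.30, log2 fold change 1.13), and 1.61-fold higher with hypo-Migs than with CD147KO-Migs (1.53 to 1.70, log2 fold change 0.69). With hypo-Migs it was lower than with normo-Migs, by a log2 fold change of -0.44. Against PBS, CD147KO-Migs stood at a log2 fold change of -0.98, just inside the 2-fold limit, and PBS was 1.97-fold higher (1.88 to 2.07). Scaling by total reads in place of TMM put that value past 2-fold. Among the 13601 genes whose mean was 50 reads or more, SERPINE2 was in place 53 by the size of its log2 fold change between normo-Migs and CD147KO-Migs, a pair in which 0.691% of those genes passed 2-fold.

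Set against its targets, SERPINE2 mRNA per length was 4.39-fold that of PLAU with normo-Migs (3.96 to 4.89), 2.75-fold with hypo-Migs (2.51 to 3.01) and 1.51-fold with CD147KO-Migs (1.37 to 1.66). The ratio with PBS was 760 (210 to 6275), through the 2 PLAU reads there. Against PLAT the same ratio was 8.35, 5.85 and 3.74 in the Mig libraries. In both series the ratio was highest with normo-Migs and lowest with CD147KO-Migs, and the intervals of the 3 libraries did not overlap. The size of each ratio rests on the pooled exon lengths.

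SERPINB2, which encodes the urokinase inhibitor PAI-2, was not expressed at a level these libraries could measure. It had 2 reads with PBS and 0 in each Mig library, and 3 reads, the limit that a count of 0 allows, correspond to 0.0869 CPM after TMM in the library with PBS and to 0.0880, 0.0747 and 0.0857 CPM in those with normo-Migs, hypo-Migs and CD147KO-Migs. No fold is given for it.

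Tissue factor was the most abundant of the 9 mRNAs per length in every library. That rank rests on the pooled exon lengths, 2875 bases for F3, 8891 for SERPINE2 and 11714 for TFPI. By reads, SERPINE2 and TFPI exceeded F3 in every library. F3 had 2258 reads with PBS and 2462, 3235 and 2246 with normo-Migs, hypo-Migs and CD147KO-Migs, or 22.7, 24.9, 27.8 and 22.1 FPKM. Its FPKM with hypo-Migs lay above 89.0% of the 14419 protein-coding genes tested. The level was highest with hypo-Migs, then normo-Migs, and those with PBS and CD147KO-Migs did not differ beyond counting error.

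The differences in F3 were small beside the 2-fold call. With hypo-Migs its level was 1.23-fold that with PBS (1.17 to 1.30), 1.26-fold that with CD147KO-Migs (1.19 to 1.33) and 1.12-fold that with normo-Migs (1.06 to 1.18). Its enzyme partner, factor VII (F7), had 0 reads in all 4 libraries.

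The Kunitz-type inhibitors TFPI and TFPI2 behaved differently. TFPI, which blocks the complex of tissue factor and factor VIIa, had 3406 reads with PBS and 3172, 3859 and 3308 with normo-Migs, hypo-Migs and CD147KO-Migs, or 8.41, 7.88, 8.14 and 7.99 FPKM. Its log2 fold changes against PBS were -0.08, -0.04 and -0.06, and the Mig libraries did not differ from each other beyond counting error. TFPI was the steadiest of the 8 genes tested, with a lowest level of 93.1 and a highest of 98.7 CPM after TMM.

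TFPI2, a related inhibitor that acts on plasmin and other matrix-degrading proteases, had 6 reads with PBS and 1666, 1765 and 1178 with normo-Migs, hypo-Migs and CD147KO-Migs, or 0.0647, 18.1, 16.3 and 12.4 FPKM. The library with PBS again lay far below the other 3. The TFPI2 level was 281-fold higher with normo-Migs than with PBS (129 to 768), 253-fold with hypo-Migs (116 to 690) and 193-fold with CD147KO-Migs (88.6 to 528). Its log2 fold change with normo-Migs against PBS, 7.74, was in place 86 of the 19895 genes. Between Mig libraries TFPI2 was 1.45-fold higher with normo-Migs than with CD147KO-Migs (1.35 to 1.57) and 1.31-fold higher with hypo-Migs than with CD147KO-Migs (1.21 to 1.41), and it was lower with hypo-Migs than with normo-Migs by a log2 fold change of -0.15, outside counting error.

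As a share of the summed FPKM of TFPI and TFPI2, TFPI2 took 0.763% with PBS and 69.6%, 66.6% and 60.9% with normo-Migs, hypo-Migs and CD147KO-Migs. Per length, F3 mRNA was 2.70-fold that of TFPI with PBS (2.56 to 2.85), 3.16-fold with normo-Migs (3.00 to 3.33), 3.42-fold with hypo-Migs (3.26 to 3.58) and 2.77-fold with CD147KO-Migs (2.62 to 2.92). Against TFPI2 it was 351-fold with PBS (161 to 958) and 1.38-fold, 1.71-fold and 1.78-fold in the Mig libraries. The ratio to TFPI was highest with hypo-Migs, where its interval did not overlap those with PBS and CD147KO-Migs, while the ratio to TFPI2 was highest with PBS. The share and the ratios rest on the pooled exon lengths, so their size depends on which transcripts are made.

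Thrombomodulin mRNA was low. THBD had 204 reads with PBS and 219, 205 and 149 with normo-Migs, hypo-Migs and CD147KO-Migs, or 1.44, 1.55, 1.23 and 1.03 FPKM. The level with CD147KO-Migs was the lowest and that with normo-Migs the highest. It was 1.51-fold higher with normo-Migs than with CD147KO-Migs (1.22 to 1.87), while the ratio of hypo-Migs to CD147KO-Migs, 1.20, had an interval from 0.967 to 1.49 and did not leave counting error.

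Counted together, 3 of the 8 genes tested (PLAU, PLAT and TFPI2) were more than 2-fold higher than with PBS in each of the 3 comparisons, and 0 were lower. Of all genes tested, 30.2% passed 2-fold in either direction with normo-Migs against PBS, 30.5% with hypo-Migs and 30.3% with CD147KO-Migs, with 18.1%, 18.9% and 18.3% higher and 12%, 11.6% and 12% lower. Among the 13601 genes with a mean of 50 reads or more, as all 8 have, 20.3%, 20.6% and 20.6% passed 2-fold in either direction. The comparisons share the library with PBS, so their likeness is no separate evidence. The median log2 fold change of the 8 genes was 0.33, 0.41 and 0.23, and that of all genes 0.03, 0.04 and 0.03.

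**Figure D1:**
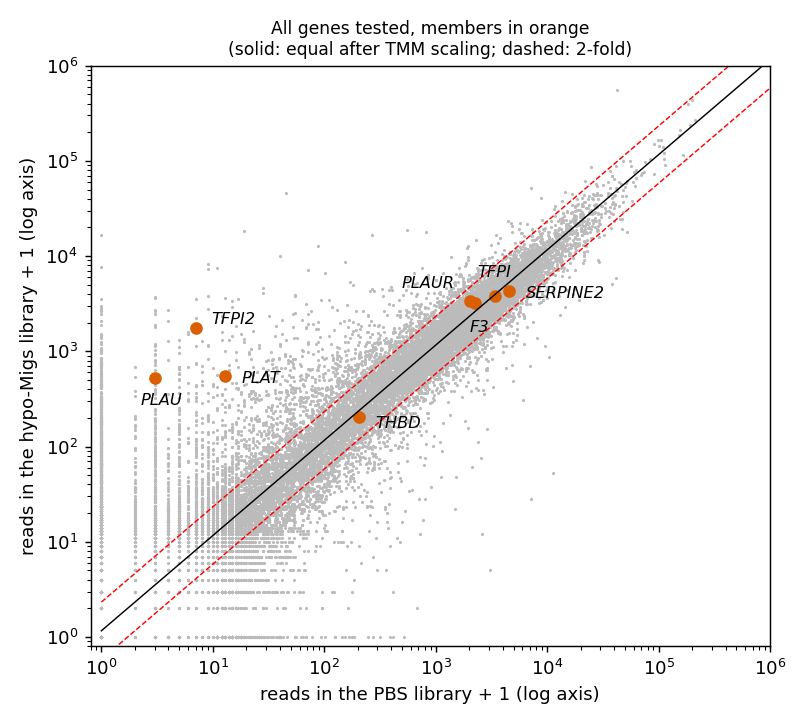
Reads in the library with hypo-Migs (vertical axis) against reads in the library with PBS (horizontal axis), both plus 1 read and on log axes, for the 19895 genes tested in grey and the 8 genes described in orange. The solid line marks equal levels after TMM scaling and the dashed lines 2-fold. PLAU, PLAT and TFPI2 lie far above the upper dashed line, and the other 5 lie between the lines.

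Between Mig libraries, 0 of the 8 passed 2-fold for hypo-Migs against normo-Migs, 0 for hypo-Migs against CD147KO-Migs, and 1, SERPINE2, for normo-Migs against CD147KO-Migs. The background was 9.34%, 9.12% and 9.69% of the genes tested, with 5.19%, 4.78% and 4.73% higher and 4.15%, 4.34% and 4.96% lower, much of it from genes with few reads. All 8 genes had a mean of 50 reads or more, and among the 13601 genes that did, 0.647%, 0.544% and 0.691% passed 2-fold. Differences of any size outside counting error were found for 5, 3 and 5 of the 8, beside 34.9%, 35% and 34.5% of the genes tested. Those shares include many genes with few reads, which leave counting error less easily than the 8. They were not computed for the 13601 genes, so the counts are descriptions only. The median log2 fold change of the 8 was 0.03, 0.15 and 0.10, beside a median of all genes that rounds to 0.00 in each pair.

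The PLAU level was 1.33-fold higher with CD147KO-Migs than with normo-Migs (1.16 to 1.52) and 1.18-fold higher with hypo-Migs than with normo-Migs (1.03 to 1.35), whereas the difference between hypo-Migs and CD147KO-Migs, a log2 fold change of -0.17, did not leave counting error. For PLAT, the 3 Mig libraries did not differ beyond counting error, and the widest interval of a log2 ratio ran from -0.22 to 0.16. Without replicates it is unknown whether ratios of this size exceed the spread between cultures.

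**Figure D2:**
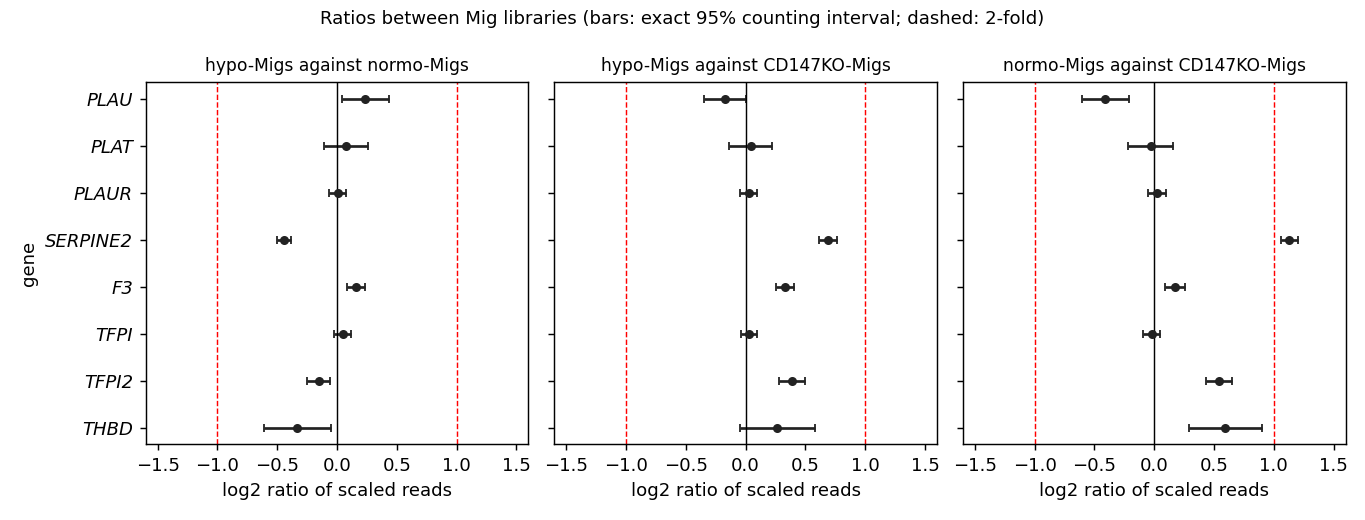
Log2 ratio of scaled reads between pairs of Mig libraries (horizontal axis) for the 8 genes tested (vertical axis), with hypo-Migs against normo-Migs, hypo-Migs against CD147KO-Migs and normo-Migs against CD147KO-Migs from left to right. Bars are exact 95% counting intervals and dashed lines mark 2-fold. SERPINE2 passes the 2-fold line in the right panel alone, and PLAT, PLAUR and TFPI have bars that cross 0 in all 3 panels.

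The wider cascades were described by 7 lists of other genes, 79 in all, of which 58 were tested. Against PBS, 16 were more than 2-fold higher and 5 lower with normo-Migs, 16 and 5 with hypo-Migs, and 15 and 5 with CD147KO-Migs, beside 18.1%, 18.9% and 18.3% of all genes tested that were higher and 12%, 11.6% and 12% that were lower. The same shares are the background of the counts of each list, which are descriptions. The median log2 fold change of the 58 was 0.31, 0.31 and 0.24, or 0.31, 0.29 and 0.24 with the 6 genes at 0 reads in a library of the pair set to the bound that 3 reads give. Between Mig libraries the calls were 1 higher and 2 lower (hypo-Migs against normo-Migs), 2 and 6 (hypo-Migs against CD147KO-Migs), and 3 and 3 (normo-Migs against CD147KO-Migs), beside 9.34%, 9.12% and 9.69% of all genes tested. The 10 genes behind those calls had at most 87 reads in any library.

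Of the 12 genes tested in the plasminogen system, 2 were higher and 3 lower than PBS for normo-Migs, 3 and 3 for hypo-Migs, and 2 and 3 for CD147KO-Migs. PLGRKT, a plasminogen receptor, had 139 reads with PBS and 303, 420 and 330 with normo-Migs, hypo-Migs and CD147KO-Migs, and its ratio to PBS was 2.21 to 2.60. ST14, the transmembrane protease matriptase, which can activate pro-urokinase, ran the other way, with 780 reads with PBS and 40, 63 and 60 in the Mig libraries. PBS was 19.3-fold, 14.4-fold and 13.2-fold higher than normo-Migs, hypo-Migs and CD147KO-Migs for ST14. VTN, or vitronectin, an adhesive protein that uPAR binds, was likewise higher with PBS, at 561 reads beside 188, 179 and 234. The most abundant gene of the list by FPKM was ENO1, a glycolytic enzyme that also binds plasminogen, at 850 FPKM with PBS and 981 with hypo-Migs.

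Among 8 clearance receptors tested, 1 was higher and 1 lower than with PBS in each comparison. LRP1B, a large receptor of the LDL receptor family, had 24 reads with PBS and 492, 604 and 594 in the Mig libraries, whereas SORL1 had 2904 and then 1341, 1616 and 1431. IGF2R, which binds uPAR among other ligands, was the most abundant by FPKM, with 15.8 with PBS and 19.7 with hypo-Migs. Of 10 clotting factors and cofactors tested, 2 were higher and 0 lower in each comparison with PBS, among them F12 (factor XII), with 232 reads and then 816, 742 and 866. LMAN1, the cargo receptor that helps factors V and VIII leave the endoplasmic reticulum, was the most abundant by FPKM and stayed under 2-fold.

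PROCR, the receptor that presents protein C to the complex of thrombin and thrombomodulin, was higher in all 3 Mig libraries than with PBS. It had 366 reads with PBS and 2067, 2396 and 2102 with normo-Migs, hypo-Migs and CD147KO-Migs, and was 5.72-fold (5.12 to 6.41), 5.63-fold (5.04 to 6.30) and 5.66-fold (5.06 to 6.34) higher than with PBS. The Mig libraries thus lay together, above PBS, for PROCR but not for THBD, which works with it. Of the 7 anticoagulants tested, 1 was higher and 1 lower with normo-Migs, 2 and 1 with hypo-Migs and 2 and 0 with CD147KO-Migs. ANXA5, which shields anionic phospholipid, was the most abundant of them by FPKM and was 1.66-fold higher with PBS than with hypo-Migs.

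All 4 protease-activated receptors, which clotting proteases cleave, were tested, and 4, 3 and 3 were more than 2-fold higher than with PBS with normo-Migs, hypo-Migs and CD147KO-Migs, beside the 18.1%, 18.9% and 18.3% of all genes tested. F2R, the thrombin receptor PAR1, had 209 reads with PBS and 793, 938 and 946, a ratio of 3.84, 3.86 and 4.46. F2RL3, the thrombin receptor PAR4, had 0 reads with PBS and 325, 362 and 372. With a floor of 3 reads in the library with PBS, F2RL3 was at least 110-fold, 104-fold and 122-fold higher. The other receptors were less clear. F2RL1 lay at the 2-fold limit, with log2 fold changes of 1.03, 1.04 and 0.95, and F2RL2 had 0 reads with PBS and 11, 2 and 14. Of 10 serpins of clades B and E, 4, 4 and 3 were higher and 0 lower than PBS for normo-Migs, hypo-Migs and CD147KO-Migs. SERPINB1 was the most abundant by FPKM averaged over the 4 libraries, although SERPINB5 exceeded it with normo-Migs (24.6 FPKM beside 23.5) and with hypo-Migs (24.8 beside 23.8). Of 7 proteins with Kunitz domains, 2 were higher and 0 lower than PBS for normo-Migs, 1 and 0 for hypo-Migs, and 2 and 1 for CD147KO-Migs. SPINT2, an inhibitor of matriptase, was higher in each comparison, with 100 reads with PBS and 549, 593 and 659 in the Mig libraries. APP, which carries a Kunitz domain in some isoforms, was the most abundant of that list by FPKM averaged over the 4 libraries, although APLP2 exceeded it with CD147KO-Migs (101 FPKM beside 98.6). In these lists SERPINA5, F5, SERPINB3 and SERPINB9 also passed 2-fold upward in all 3 comparisons with PBS, with 0 or 1 read with PBS and at most 22, 15, 42 and 74 reads in a Mig library.

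Patterns like those of the 8 genes were sought among 11880 protein-coding genes that reached 100 reads in any library, by the Euclidean distance between log2 CPM values centred over the 4 libraries. With 4 points, 1 of them the library with PBS, such a distance is a description only. THNSL2 (0.0434) and SOX7 (0.0839) came nearest to PLAU, both with 0 reads with PBS, and PRSS12 (0.0587) and EMX1 (0.0661) nearest to PLAT. RBP7 (0.162) and FSTL4 (0.170) came nearest to TFPI2. The distances for PLAU, PLAT and TFPI2 depend on the prior count, since these genes and their neighbours had few or 0 reads with PBS. At the prior count used, SERPINE2 had the most separate pattern of the 8. Its nearest genes were ETV4, at 0.198, with 737 reads with PBS and 758, 633 and 410 in the Mig libraries, and SLC26A1, at 0.212. For PLAUR the nearest were MMAB (0.0114) and SART3 (0.0134), for TFPI they were TCAF1 (0.0104) and PRKRA (0.0181), for F3 NRIP2 (0.0360) and C12orf76 (0.0442), and for THBD ATP8B3 (0.0662) and SMARCE1 (0.0870).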

How the data were processed

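MHCC-97H cells were sequenced in 4 libraries, 1 per condition. The authors deposited raw counts, the reads on each gene without normalization, and FPKM, in which reads were divided by gene length and sequencing depth. Gene length pools the exons of all transcripts, so comparisons of genes per length depend on which transcripts are made, which was not tested. Per the submitters' processing notes CASAVA 1.8, fastp, HISAT2 2.0.5, featureCounts 1.5.0-p3 and hg38 were used. The supplementary methods describe poly-T selection and random hexamers, and the labels name a SMARTer mRNA kit. Values were computed with edgeR 4.0.16 in R 4.3.3, with DESeq2 1.42.0 for size factors alone, and with scipy 1.17.1 in Python 3.11.15. Genes reaching 10 reads in any library were kept and their counts scaled by TMM, with a prior count of 2, and all 6 pairs were compared. Quasi-likelihood and DESeq2 tests have no residual degrees of freedom here, so a log2 fold change of 1 was the call, with exact binomial intervals for ratios and Poisson intervals for levels. The step was tested on simulated data. The genes described and the lists were chosen with earlier results of these data known. The rule named, per list, up to 4 genes past 2-fold in the same direction in all 3 comparisons with PBS and any past 2-fold between Mig libraries, both with at least 100 reads in a library, the most abundant gene by mean FPKM, and the 2 nearest patterns of each gene described. The labels used here name no batch that separates the libraries, and it is not known whether they were made or sequenced together. A gene of the lists is not reported here and was left out of the lists, though it stayed in the fit across all genes.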

Additional observations from a re-analysis of the deposited data

How the results depend on the processing

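The pairs below are, in order, hypo-Migs against normo-Migs, hypo-Migs against CD147KO-Migs, normo-Migs against CD147KO-Migs, and normo-Migs, hypo-Migs and CD147KO-Migs against PBS. The number of genes past 2-fold depended on the filter on low reads and on the prior count. With the prior count of 2 it was 1858, 1814, 1928, 6003, 6067 and 6033 of the 19895 genes. With a prior count of 0.25 it was 2376, 2332, 2388, 6304, 6453 and 6376. It was 253, 233, 264, 2684, 2744 and 2753 with at least 10 reads in every library (14970 genes tested). With at least 1 read in any library (31098 genes) it was 5103, 4968, 5930, 10676, 9625 and 10759. With a mean of at least 50 reads and TMM recomputed (13601 genes) it was 89, 74, 95, 2770, 2799 and 2795. It was 639, 631, 683, 3792, 3819 and 3801 among the 14419 protein-coding genes tested. Among all 19895 genes it was 56, 80, 66, 1619, 1674 and 1658 on the log2(FPKM + 1) scale and 3630, 3662, 3676, 9614, 9696 and 9704 with a fold of 1.5. On the log2(FPKM + 0.1) scale the first 3 pairs gave 1021, 1005 and 1037, and with the exact binomial test added, which compares 2 libraries and not conditions, 975, 1003 and 977. With at least 10 reads in every library, 6 of the genes described were tested, beside the 14970 genes in all. Of the 6, 1 (PLAT) remained past 2-fold in each comparison with PBS. PLAU and TFPI2 then drop out for their low reads with PBS. With a fold of 1.5, 1 of the 8 genes passed for hypo-Migs against CD147KO-Migs and 2 for normo-Migs against CD147KO-Migs. For CD147KO-Migs against PBS 4 passed, in place of 3, with a fold of 1.5, with total reads as the scale and among protein-coding genes. With at least 1 read in any library, 4 of 9 passed in each comparison with PBS, beside 10676, 9625 and 10759 of 31098 genes. That filter adds SERPINB2, with 2 reads with PBS and 0 in each Mig library, too few for a fold to be given. Fold changes of the genes described were compared 240 times over 5 alternatives of scaling, prior count and unit. Of the 240, 220 stayed within the counting interval, 20 moved and 0 changed sign. On the log2(FPKM + 1) scale the values for hypo-Migs against PBS were 2.41 for PLAU, 1.54 for PLAT and 4.02 for TFPI2, in place of 6.86, 5.10 and 7.58, all still past 2-fold. No paired analysis was possible because each condition has 1 library, and leaving out a replicate was not possible for the same reason. A gene needs more than 3 reads to be told from a count of 0, which limits PLAU and SERPINB2 with PBS.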
